A study of Homo sapiens with 4 samples.

Results

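The genes described here are 9 genes of the PI3K, AKT and mTOR pathway, PIK3CA, PIK3CB, PIK3R1, AKT1, AKT2, MTOR, RPTOR, RICTOR and TSC2. They were taken by symbol from a count table of 60606 genes, and all 9 were found and passed the expression filter, as 19349 genes did. The table holds 4 libraries of poly(A) RNA from DaroR cells (LNCaP-DaroR), a single resistant line raised from LNCaP prostate cancer cells by long culture in rising darolutamide, a drug against androgen signaling. In 2 libraries the cells had received a control siRNA (siControl), and in the other 2 a commercial siRNA pool that targets the lncRNA LOC730101 (siLOC730101). The labels give the same line for both groups, which differ in the siRNA they received. The labels do not say whether the replicates are separate cultures, so p-values measure the spread between these libraries, which may be technical. As RNA was taken from whole cultures, fewer cells of a kind and less RNA per cell cannot be told apart.

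Class I PI3-kinases pair a catalytic subunit (p110) with a regulatory subunit (p85 or p55), and after receptor activation they make PIP3 at the plasma membrane. PIP3 recruits the kinase AKT, which phosphorylates TSC2, and loss of TSC complex activity lets RHEB switch on mTOR complex 1, the main driver of protein synthesis in response to growth factors and amino acids. The comparison asks whether the mRNAs of this pathway changed when LOC730101 was depleted in the resistant cells.

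Library totals ranged from 39213498 to 53368158 counts. LOC730101 (ENSG00000216775), the targeted lncRNA, had 2560 and 2370 counts in siControl and 633 and 680 in siLOC730101. It fell by 1.56 on the log2 scale (95% interval -1.80 to -1.31, adjusted p = 4.34e-06, edgeR). All 10 prostate luminal markers examined, among them KLK3, KLK2 and HOXB13, were expressed, and their summed level was 7260 to 8050 CPM (counts scaled to a common library size) in siControl and 7720 to 7770 CPM in siLOC730101, with 0 of the 10 past an adjusted p of 0.05. The 5 leukocyte markers summed to at most 0.153 CPM in any library, with PTPRC and CD3E at 0 counts in all 4. Over the 4 libraries the 5 neuroendocrine markers summed to 56.4 to 67.9 CPM, nearly all of it ENO2, with SYP at 2.10 to 2.86 CPM and CHGA, CHGB and INSM1 at 0 counts. The 4 basal markers summed to 22.5 to 30.5 CPM, mostly DST, with KRT5 at 0 counts. The 5 fibroblast markers summed to 14.1 to 18.2 CPM, mostly COL1A1 and COL3A1, with COL1A2 and LUM at 0 counts. None of the 6 tested markers of these 3 lists passed an adjusted p of 0.05 in edgeR.

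None of the 9 genes changed past the threshold after siLOC730101. With edgeR's quasi-likelihood test, 0 of 9 had an adjusted p under 0.05, where 0.284% of all genes tested did. At an unadjusted p under 0.05 the count was again 0 of 9, where the background was 10.8%. With DESeq2 it was 0 of 9 at an adjusted p under 0.05. The DESeq2 background was 3.12% of the 9525 genes to which it gave an adjusted p. The log2 fold changes lay between -0.093 (RICTOR) and 0.11 (AKT2), 5 above 0 and 4 below, with a median of 0.044 against -0.0021 over all genes tested. Each 95% interval is for a single gene, is not adjusted over genes and rests on 2 libraries a group. Over the 9 genes the lowest bound was a fold of 0.802 (RICTOR) and the highest a fold of 1.20 (AKT2). The groups did not overlap for 3 of the 9 genes, 2 higher and 1 lower in siLOC730101. Over all genes tested, the groups did not overlap for 41.7% (21.3% higher and 20.5% lower).

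**Figure D1:**
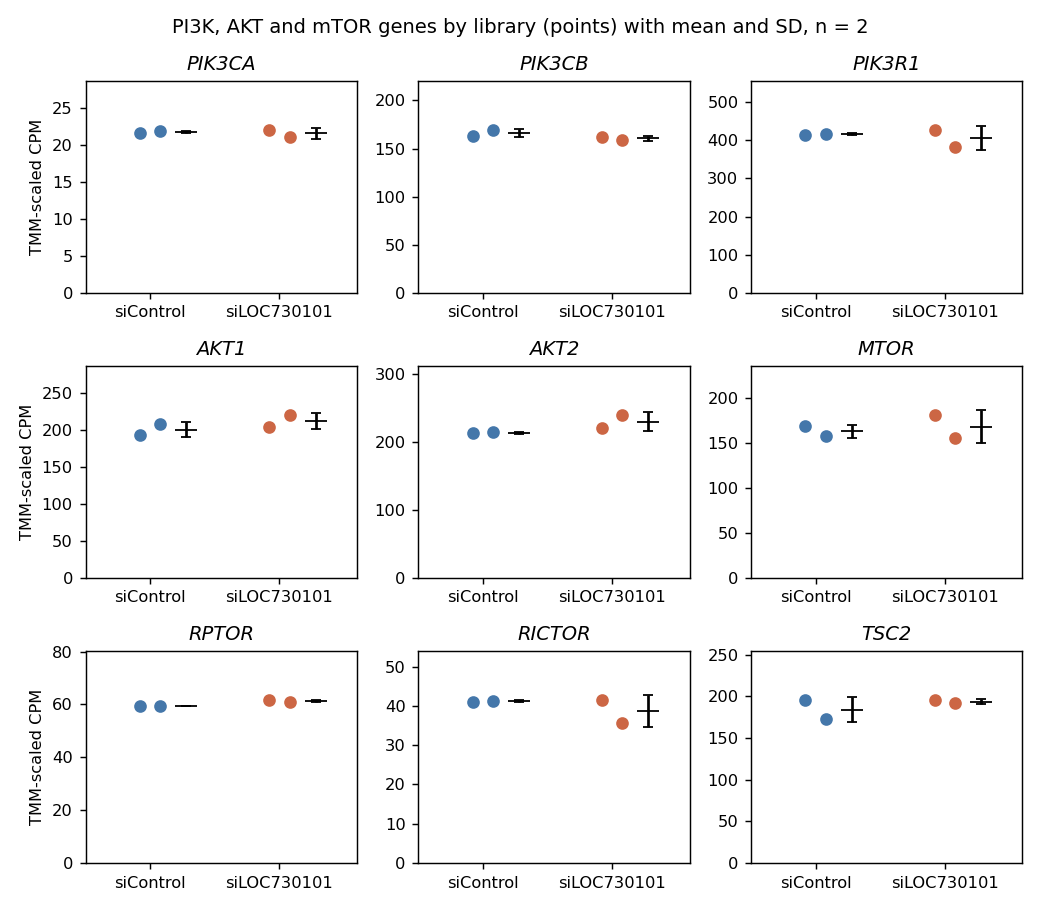
Level of each of the 9 genes in CPM after TMM scaling (y axis from 0, scale differs by gene), with 1 point for each of the 2 siControl (blue) and 2 siLOC730101 (orange) libraries and the mean with SD beside them. PIK3CB lay lower and AKT2 and RPTOR higher in both siLOC730101 libraries, and the groups overlapped for the other 6 genes.

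**Figure D2:**
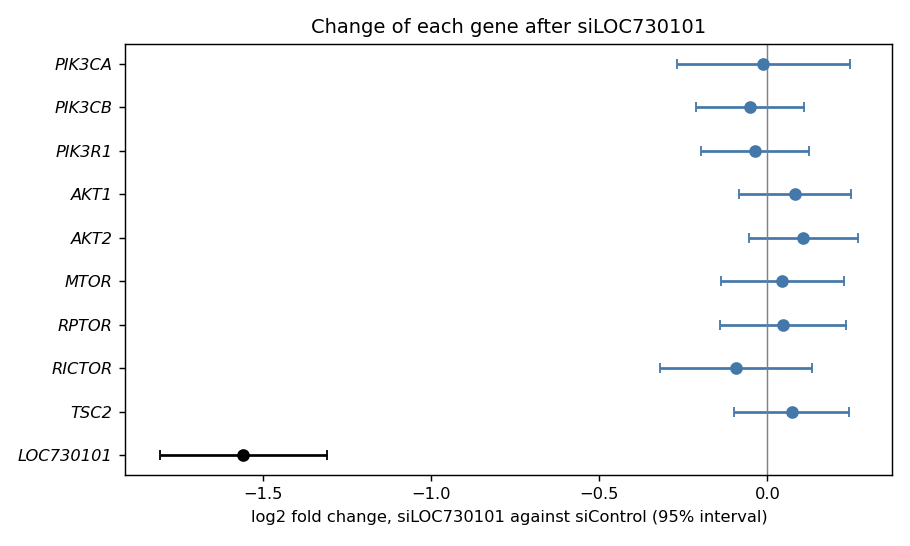
Log2 fold change of the 9 genes and of LOC730101 (x axis) with its 95% interval from edgeR. All 9 intervals include 0, and that of LOC730101 runs from -1.80 to -1.31.

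The study followed miR-1-3p as a microRNA linked to LOC730101, so the 3′ UTRs of the 9 genes were searched for its seed match. MicroRNAs pair with target mRNAs mainly through bases 2 to 8, shown in capitals in the mature sequence (RefSeq, GRCh38.p14):
hsa-miR-1-3p: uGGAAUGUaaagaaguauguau
The match to this seed in an mRNA, written as DNA, is ACATTCC. RICTOR was the one gene of the 9 with this match in the 3′ UTR of its MANE Select transcript, the reference transcript of the gene. An A follows it, which makes it an 8mer site. The site and the bases around it are shown with the seed match in capitals, on the strand of the gene:
RICTOR: ttgcttgcaatttacACATTCCat
On GRCh37 this match lies at chr5:38941463-38941469 on the minus strand, at position 937 of a 3′ UTR of 4384 bases. Over all genes tested with such a 3′ UTR, 13.3% of 13357 hold ACATTCC on the mRNA strand. A weaker match, CATTCCA without the preceding A, occurs once each in PIK3CB, PIK3R1 and AKT2. AKT1, MTOR, RPTOR and TSC2 hold 0 matches to the core CATTCC, and their 3′ UTRs are shorter, from 881 bases in TSC2 to 2038 bases in RPTOR. PIK3CA has the longest 3′ UTR of the 9 genes, 5729 bases, with 2 matches to CATTCC but 0 to ACATTCC or CATTCCA. A match is a description of the sequence, and pairing was not measured.

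AKT2 was the one gene of the 9 with TCCCGTG in its 3′ UTR, a 7mer chosen for this search from an earlier scan of these same libraries, so that its presence is no independent evidence. It is found on the mRNA strand in 4.21% of the 13357 genes, and it can overlap the miR-1-3p seed match at the letters TCC. The AKT2 copy is shown in capitals:
AKT2: ctgggcccctgcactTCCCGTGct
It lies at chr19:40737620-40737626 of GRCh37, minus strand, at position 2153 of 3555 bases. AKT2 was higher in both siLOC730101 libraries, as 21.3% of all genes tested were, with an adjusted p of 0.673 in edgeR. A link between the 7mer and this difference was not tested.

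PIK3CA and PIK3CB encode the p110α and p110β catalytic subunits. PIK3CA (GRCh38 chromosome 3, 179148114 to 179240093, plus strand) had 1171 and 1022 counts in siControl and 906 and 800 in siLOC730101, the fewest of the 9 genes. Scaled to library size as CPM, this was 21.7 and 21.8 in siControl and 22.1 and 21.1 in siLOC730101. The 4 libraries were nearly level and the groups overlapped. The log2 fold change was -0.012 (standard error 0.12, 95% interval -0.27 to 0.25, adjusted p = 0.989, edgeR). Of the exon bases of PIK3CA, 19.8% are shared with KCNMB3 on the opposite strand. The recorded counting command has no strand or overlap option, so reads there are assigned to neither gene.

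PIK3CB (chromosome 3, 138652698 to 138834928, minus strand) had 163.5 and 169.4 CPM in siControl and 162.2 and 158.9 CPM in siLOC730101. Both siLOC730101 libraries were below both siControl libraries, by a narrow margin. The log2 fold change was -0.052 (95% interval -0.21 to 0.11, adjusted p = 0.877, edgeR), a change of -3.53%.

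PIK3R1 encodes p85α, the regulatory subunit that stabilizes p110 and holds it inactive until a receptor engages it. On chromosome 5 from 68215740 to 68301821 (plus strand), it had the highest CPM of the 9 genes, with 414 and 417.7 in siControl and 427.6 and 382.7 in siLOC730101. The siLOC730101 libraries lay on either side of the siControl pair, so that the groups overlapped. Its log2 fold change was -0.038 (95% interval -0.20 to 0.12, adjusted p = 0.919, edgeR).

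AKT1 and AKT2 encode AKT kinases, which act on metabolism, survival and growth once PIP3 brings them to the membrane. AKT1 (chromosome 14, 104769349 to 104795751, minus strand) had 192.7 and 207.4 CPM in siControl and 203.7 and 219.7 CPM in siLOC730101. The ranges overlapped, as siLOC730101 replicate 1 lay below siControl replicate 2. Its log2 fold change was 0.082 (95% interval -0.084 to 0.25, adjusted p = 0.783, edgeR).

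AKT2 (chromosome 19, 40230317 to 40285536, minus strand) had 213 and 215 CPM in siControl and 220.6 and 240.1 CPM in siLOC730101. Both siLOC730101 libraries were above both siControl libraries, and replicate 2 accounted for most of the gap. The log2 fold change of 0.11 (standard error 0.076, 95% interval -0.055 to 0.27) had an unadjusted p of 0.180 and an adjusted p of 0.673 in edgeR, the lowest of the 9 genes.

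MTOR encodes the kinase shared by both mTOR complexes, RPTOR the scaffold (Raptor) of complex 1 and RICTOR the scaffold of complex 2, which phosphorylates AKT. MTOR (chromosome 1, 11106535 to 11262556, minus strand) had 168.5 and 158.2 CPM in siControl and 181.3 and 155.6 CPM in siLOC730101. The siLOC730101 libraries were the highest and the lowest of the 4. Its log2 fold change was 0.044 (95% interval -0.14 to 0.23, adjusted p = 0.915, edgeR).

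RPTOR (chromosome 17, 80544819 to 80966371, plus strand) had 59.38 and 59.37 CPM in siControl and 61.63 and 61.03 CPM in siLOC730101. The libraries of each group were close together and the groups did not overlap, with a log2 fold change of 0.047 (95% interval -0.14 to 0.23, adjusted p = 0.911, edgeR). The edgeR test moderates the spread of a gene towards that of genes of like abundance, so close agreement of 2 libraries alone does not pass it.

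RICTOR (chromosome 5, 38937920 to 39074399, minus strand) had 41.03 and 41.36 CPM in siControl and 41.5 and 35.74 CPM in siLOC730101. Replicate 2 of siLOC730101 was low and replicate 1 was level with siControl. The log2 fold change of -0.093 (standard error 0.11, 95% interval -0.32 to 0.13, adjusted p = 0.825, edgeR) was the lowest of the 9 genes and became 0.0080 without siLOC730101 replicate 2. RICTOR is also the gene with the 8mer match to miR-1-3p printed above, and a link between the match and this value was not tested.

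TSC2 encodes tuberin, the GTPase-activating subunit of the TSC complex that holds RHEB and mTOR complex 1 in check. On chromosome 16 from 2047967 to 2089491 (plus strand), it had 194.9 and 173.1 CPM in siControl and 195.3 and 191.4 CPM in siLOC730101. The low library was siControl replicate 2, and the groups overlapped. The log2 fold change was 0.071 (95% interval -0.098 to 0.24, adjusted p = 0.820, edgeR) and became -0.0088 without that library. PKD1 on the opposite strand covers 4.1% of the exon bases of TSC2.

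The ratio of 2 genes within a library does not depend on how libraries are scaled, so the balance within pairs was compared as well. The ratio of PIK3CA counts to PIK3CB counts was 0.131 in siControl and 0.134 in siLOC730101. The ratio of PIK3CA to PIK3R1 was 0.0523 and 0.0533, that of AKT1 to AKT2 0.935 and 0.919, and that of MTOR to TSC2 0.889 and 0.869. These ratios are not per length and are read between groups only. The balance of RPTOR to RICTOR moved most of these 5 pairs, from 1.44 to 1.59. Its log2 ratio was 0.533 and 0.521 in siControl and 0.571 and 0.772 in siLOC730101, higher in both siLOC730101 libraries and farther in replicate 2. The difference in log2 ratio was 0.144 (exact permutation test over the 4 libraries, two-sided, p = 0.333, adjusted p = 0.832 over the 5 pairs), and 2 against 2 libraries cannot give a p under 0.333. It ranged from 0.0431 without siLOC730101 replicate 2 to 0.244 without siLOC730101 replicate 1. For the other 4 pairs the differences lay between -0.0333 and 0.0390.

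Levels of different genes were set against each other only after division by length. In CPM per kilobase of merged exons, the siControl means ran from 25.5 for PIK3R1 through PIK3CB (21.2), AKT1 (18.3), AKT2 (13.5), MTOR (12.2), TSC2 (9.62), RPTOR (5.76) and RICTOR (3.04) to 1.27 for PIK3CA. PIK3R1 was above 91.2% of the genes tested on this scale and PIK3CA above 38.7%. Over the 4 libraries, AKT2 (13.4 to 15.1) and MTOR (11.6 to 13.6) overlapped, and the other neighbours in this order did not. The merged exons hold every annotated isoform, so the length of the MANE Select transcript was tried in its place. AKT1 then came first with 67.7 CPM per kilobase, followed by PIK3R1 (59.6), AKT2 (40.8), TSC2 (28.7), PIK3CB (26.6) and MTOR (18.7). TSC2 and PIK3CB overlapped on this scale, with 27.0 to 30.4 and 25.4 to 27.1 over the 4 libraries.

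On both lengths RPTOR, RICTOR and PIK3CA stood at the low end, in that order. The RICTOR mean was thus below that of RPTOR, and the PIK3CA mean below that of PIK3CB. PIK3CD, which encodes p110δ, a form best known from leukocytes, had a siControl mean of 10.1 CPM per kilobase of merged exons, between PIK3CA and PIK3CB.

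**Figure D3:**
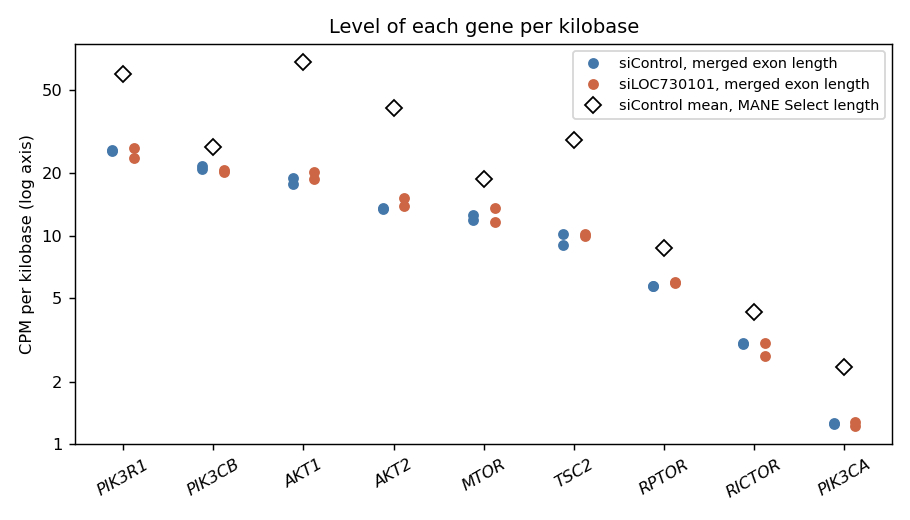
Level of the 9 genes in CPM per kilobase on a log axis, with 1 point for each siControl (blue) and siLOC730101 (orange) library divided by the merged exon length, and open diamonds for the siControl mean divided by the MANE Select transcript length. The order of the first 6 genes depends on the length used, and RPTOR, RICTOR and PIK3CA are lowest on both.

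The pattern over the 4 libraries was compared with that of 124 other tested pathway genes, by the root mean square difference of log2 CPM after each gene was centred on its own mean. MTOR was closest to TBC1D4, an AKT substrate in glucose transport, with a difference of 0.0101. RPTOR was closest to FNIP1, a partner of folliculin, with a difference of 0.0136. With 4 libraries, such closeness is a description alone.

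The wider pathway was examined with 12 lists of 133 genes in all, of which 131 were in the table and 125 were tested, the 9 genes included. Apart from the 9 genes, 1 of 116 tested genes was higher and 0 were lower at an adjusted p under 0.05 in edgeR, where the background was 0.212% higher and 0.0724% lower. At an unadjusted p under 0.05, 12 were higher and 5 were lower, where the background was 6.43% and 4.39%. With DESeq2, 3 were higher and 2 lower at an adjusted p under 0.05. The DESeq2 background was 2.46% and 0.661% of the 9525 genes to which it gave an adjusted p. Some of the 116 genes, PRR5L and PIK3R5 among them, got none. The groups did not overlap for 31 of the 116 genes higher and 21 lower in siLOC730101, where the background was 21.3% and 20.5%. The median log2 fold change of the 116 genes was 0.015, against -0.0021 over all genes tested. A further 6 genes did not pass the filter, among them PIK3R2, for p85β, with at most 9 counts in a library. Of its exon bases, 76.4% lie in a second gene model of the same strand, ENSG00000268173, and reads shared by both models are not counted for either, so its level is not known from this table.

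At the membrane end, 0 genes passed the test among the other class I subunits, class II and III PI3-kinases, and the receptors and adaptors that feed PI3K. Of the class I catalytic and regulatory lists, 7 of 9 genes were tested, with PIK3CD at a log2 fold change of -0.011, PIK3R3 (p55γ) at 0.018 and PIK3R5, at most 73 counts a library, at -1.27 (adjusted p = 0.505, edgeR). PIK3C2B, a class II kinase, had 0.14, and PIK3R4, the VPS15 partner of the class III kinase, had -0.16. Among 9 receptors and adaptors, the values ran from -0.085 for the insulin receptor substrate IRS1 to 0.14 for ERBB3, a receptor with many PI3K docking sites (255.2 and 253.6 CPM after siLOC730101, 231.1 and 230.4 CPM in siControl; adjusted p = 0.516, edgeR).

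Phosphatases act against the pathway, and 0 of 7 tested genes in that list passed the test in edgeR. PHLPP2, which dephosphorylates AKT, came nearest, with 31.89 and 33.35 CPM in siControl and 20.93 and 23.76 CPM in siLOC730101. Both siLOC730101 libraries were well below siControl. The log2 fold change was -0.55 (standard error 0.12, 95% interval -0.79 to -0.30, adjusted p = 0.0671, edgeR), and the adjusted p ranged from 0.000526 to 0.131 over 14 alternatives and was under 0.05 in 11 of them, DESeq2 included (adjusted p = 0.0110). Like RICTOR, PHLPP2 holds 1 match to the miR-1-3p seed, an 8mer, shown in capitals on the strand of the gene:
PHLPP2: acctatactctttgcACATTCCac
It lies at chr16:71681202-71681208 of GRCh37, minus strand, at position 1585 of a 3′ UTR of 3966 bases. A link between this match and the lower PHLPP2 level was not tested. Other genes on the opposite strand share 11.0% of the exon bases of PHLPP2. In the same list PIK3IP1, an inhibitor of p110, had the highest value, 0.23 (adjusted p = 0.701, edgeR). Over all wider lists, 14 of 124 genes with a 3′ UTR (11.3%) hold ACATTCC, against the 13.3% of all genes tested given above. Of these 14 genes, RICTOR and PHLPP2 included, 6 had a log2 fold change above 0 and 8 below, with a median of -0.084. Of all 1774 tested genes with ACATTCC, 844 were above 0 and 930 below, with a median of -0.0087. With or without a match, the 124 pathway genes with a 3′ UTR had 65 above 0 and 59 below, with a median of 0.0147. All 13357 tested genes with a 3′ UTR had 7192 above 0 and 6165 below, with a median of 0.017. The part of transcript length, described further on, in these medians was not tested. TXNIP, which is described further on, holds 0 matches to CATTCC in its 3′ UTR.

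In the kinase list of AKT, PDK1 and SGK genes, SGK3 had 0.16 and SGK2 -0.16, and 0 of 6 passed. Among 12 genes of the mTOR complexes and their assembly factors, 0 passed. TTI1, part of the TTT complex that assembles MTOR into its complexes, had 28.03 and 27.82 CPM in siControl and 23.29 and 20.2 CPM in siLOC730101, a difference of -0.36 on the log2 scale (edgeR adjusted p = 0.249), and PRR5L, at 0.34 CPM or less in every library, had 0.42. In the list of the TSC complex, RHEB and AMPK, 0 of 15 passed, with values from -0.23 for PRKAA2, a catalytic subunit of AMPK, to 0.18 for PRKAG1, 61.8% of whose exon bases are shared with other gene models.

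Amino acid sensing held the one gene that changed past the threshold. LAMTOR2 (p14) is a subunit of Ragulator, the lysosomal anchor to which Rag GTPases bring mTOR complex 1. It had 28.45 and 28.95 CPM in siControl and 39.62 and 50.6 CPM in siLOC730101. Both siLOC730101 libraries were higher, replicate 2 by the most. LAMTOR2 thus rose by 0.65 on the log2 scale (standard error 0.12, 95% interval 0.40 to 0.91, adjusted p = 0.0275, edgeR). Without siLOC730101 replicate 2 it was 0.46 with an adjusted p of 0.0688 in edgeR, and over 14 alternatives the adjusted p ranged from 1.03e-08 to 0.0688.

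The other Ragulator subunits were looked at after these values were seen, and 0 of them passed in edgeR with the settings used throughout. On the log2 scale LAMTOR5 differed by 0.44 (edgeR adjusted p = 0.113), LAMTOR4 by 0.37 (adjusted p = 0.192), LAMTOR1 by 0.25 (adjusted p = 0.298) and LAMTOR3 by 0.14 (adjusted p = 0.625). LAMTOR4 shares 18.4% and LAMTOR5 17.5% of exon bases with a gene on the opposite strand, and LAMTOR2 shares 0. Over 14 alternatives the adjusted p was under 0.05 in 6 for LAMTOR5, DESeq2 among them (adjusted p = 0.0195), in 3 for LAMTOR4 and in 2 for LAMTOR1. With 1 library left out the differences ran from 0.278 to 0.597 for LAMTOR5, from 0.18 to 0.552 for LAMTOR4, from 0.147 to 0.365 for LAMTOR1 and from 0.0651 to 0.226 for LAMTOR3, with the low value without siLOC730101 replicate 2 for LAMTOR4 and LAMTOR5 and without siControl replicate 1 for LAMTOR1 and LAMTOR3. In each of the 5 genes both siLOC730101 libraries were above both siControl libraries, where 21.3% of all genes tested, of any length, were. LAMTOR2 had prompted the look at the other subunits, so this count is a description and no independent evidence.

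Downstream of mTOR complex 1, 0 of 15 effectors passed. RPS6, the ribosomal protein whose phosphorylation reports S6 kinase activity, had 1154 and 1255 CPM in siControl and 1363 and 1680 CPM in siLOC730101, a difference of 0.34 on the log2 scale (edgeR adjusted p = 0.125). RPS6 was past the threshold in 5 of 14 alternatives, DESeq2 among them (adjusted p = 0.00995), and differed by 0.176 without siLOC730101 replicate 2 and by 0.489 without siLOC730101 replicate 1. RPS6KB1, which encodes S6 kinase 1, had -0.12 (adjusted p = 0.745, edgeR). The median of the list was 0.095, the highest of the 12 lists. AKT substrates ranged from -0.21 for MDM2 to 0.43 for BAD, a pro-apoptotic protein that AKT holds inactive (adjusted p = 0.179, edgeR), with 0 of 10 past the threshold. FOXO factors, which AKT keeps out of the nucleus, drive genes such as TXNIP, which had 260.1 and 280.6 CPM in siControl and 226.6 and 223.6 CPM in siLOC730101 (log2 fold change -0.26, adjusted p = 0.162, edgeR). TXNIP was past the threshold in 4 of 14 alternatives, DESeq2 among them (adjusted p = 0.0208), with values from -0.317 to -0.206 over all 14. PINK1 had the highest value of that list, 0.38 (adjusted p = 0.495, edgeR), and 0 of 15 genes passed.

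**Figure D4:**
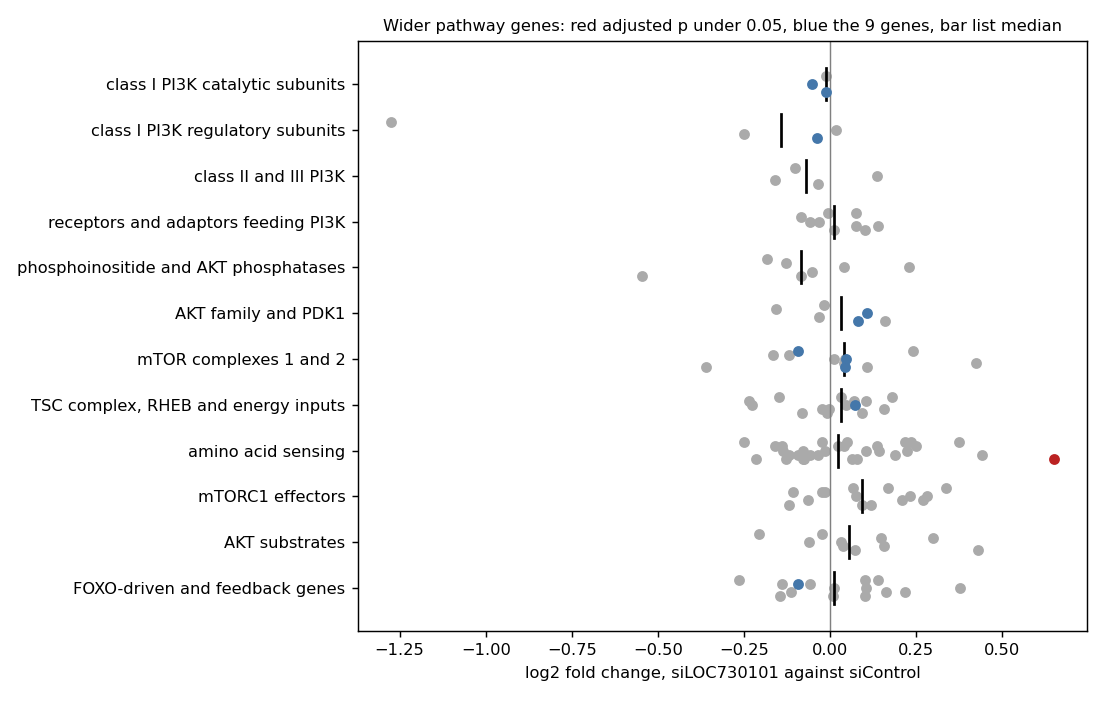
Log2 fold change (x axis) of each tested gene in the 12 pathway lists, 1 point a gene, with a bar at the median of each list. Blue points are the 9 genes, which lie between -0.093 and 0.11, and the red point is LAMTOR2 at 0.65, the one gene past an adjusted p of 0.05.

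Transcript length moved with the change in these libraries. Among genes tested with a mean above 1 CPM, the median log2 fold change was 0.23 for 604 genes whose MANE Select transcript is up to 1000 bases long, 0.11 for those over 1000 and up to 2000 bases, 0.028 up to 4000 bases, -0.022 up to 8000 bases and -0.062 for 1078 genes over 8000 bases. Each siLOC730101 library showed it against the siControl mean, with medians of 0.13 and 0.35 in replicates 1 and 2 for the shortest class and -0.0094 and -0.12 for the longest. The step was larger in replicate 2. Both replicates were set against the same siControl mean, so their medians are not independent. The siControl libraries were not compared with each other by length. LAMTOR2, LAMTOR4 and LAMTOR5 have transcripts of 621, 594 and 620 bases. Of the genes up to 1000 bases, 4.3% had an adjusted p under 0.05 in edgeR and 4.64% had a log2 fold change at or above that of LAMTOR2. Among the genes downstream, BAD and RPS6 have transcripts of 929 and 1369 bases, and RPS6KB1, at -0.12, has one of 5428 bases. The transcript of PHLPP2, at -0.55, has 8317 bases. The part of length in the values of LAMTOR2, the other Ragulator genes, BAD and the list of effectors was not tested. It was also not tested for PHLPP2 and for the genes with ACATTCC.

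The 9 genes have MANE Select transcripts from 2957 bases (AKT1) to 9533 bases (RICTOR). AKT1 and AKT2, the shortest of them, had the highest log2 fold changes, and RICTOR, the longest, had the lowest. RPTOR, TSC2 and MTOR, with 6838, 6415 and 8721 bases, lay above the median of their length class, as AKT1, AKT2 and PIK3CA did. PIK3CB, PIK3R1 and RICTOR lay below the median of theirs. The part of length in these differences was not tested either.

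**Figure D5:**
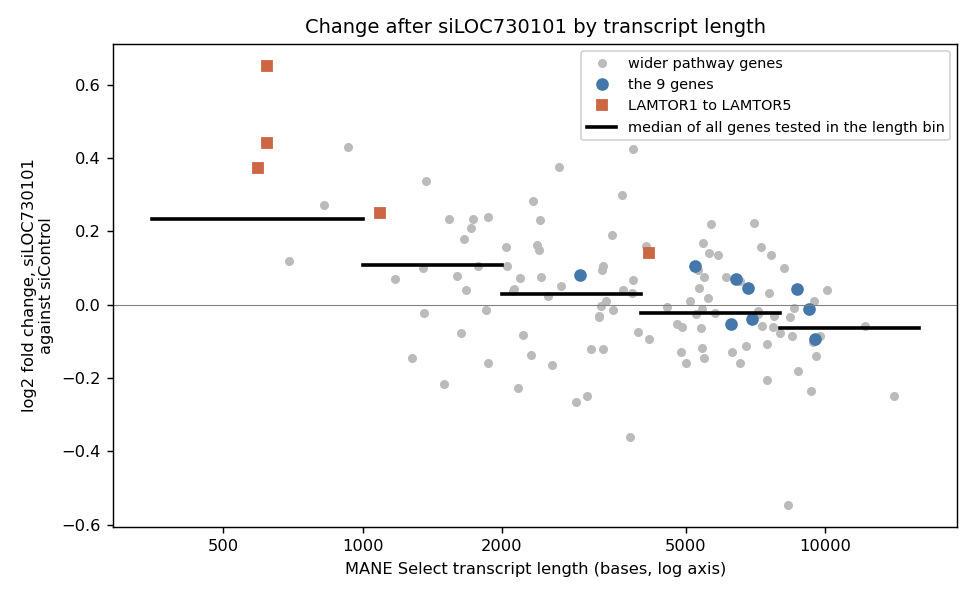
Log2 fold change (y axis) against MANE Select transcript length in bases (x axis, log scale) for the 9 genes (blue), the 5 Ragulator genes (orange squares) and the other pathway genes (grey, PIK3R5 at -1.27 outside the axis), with bars at the median of all genes tested above 1 CPM in each of 5 length classes. The medians step down from 0.23 to -0.062 with length, and the 9 genes lie between -0.093 and 0.11.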

How the data were processed

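The authors deposited 1 table of counts for the 4 libraries, unnormalized, made with featureCounts 2.0.1 on exons summed by gene name. Its header names hg38 and gencode version 41 and has no paired-end or strand option. The paper names Trim-galore, STAR and hg19, and the submitters' processing notes list BWA and hg38. Weak genes have mostly even counts (66.0% to 70.1% of values from 1 to 20), so mates may be counted apart.

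Counts were filtered with filterByExpr, scaled with TMM and tested with glmQLFit (legacy method, not robust) and glmQLFTest in edgeR 4.0.16 (R 4.3.3), with Benjamini-Hochberg adjustment over 19349 genes. Standard errors and 95% intervals come from the F statistic. DESeq2 1.42.0 was an alternative. The test was first run on simulated counts. Values of single libraries are TMM-scaled CPM, except marker sums, which use library totals. The common biological coefficient of variation, fitted over all genes, was 0.147.

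The members and lists were chosen with earlier results of these data known. Named genes are the 9 genes, every list gene with an adjusted p under 0.05, the highest and lowest of each list, and the 3 closest pairs in pattern. Some of these are not reported here. LAMTOR1, LAMTOR3, LAMTOR4, LAMTOR5 and PIK3R2 were named after their values were seen. Seed matches were searched in MANE Select 3′ UTRs of gencode 44 lifted to GRCh37, joined by symbol. Gene positions are on GRCh38 as the table gives them.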

Additional observations from a re-analysis of the deposited data

How the results depend on the processing

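Over 14 alternatives, 0 of the 9 genes passed an adjusted p of 0.05, and LOC730101 stayed past it, between -1.67 and -1.44 when 1 library was left out. PIK3CB, AKT1, AKT2 and RPTOR kept their direction in all 14. With 1 library left out, the sign turned for PIK3CA (-0.0365 to 0.0174), PIK3R1 (-0.111 to 0.0375) and RICTOR (-0.196 to 0.00798), each above 0 without siLOC730101 replicate 2. MTOR (-0.0611 to 0.147), TBC1D4 (-0.0687 to 0.13) and PRKAG1 (-0.356 to 0.568) were below 0 without siLOC730101 replicate 1, and IRS1 (-0.277 to 0.0924) was above 0 without it. TSC2 (-0.00879 to 0.161) and PIK3R3 (-0.0227 to 0.0644) fell below 0 without siControl replicate 2, as TBC1D4 did (-0.0204), and PIK3CD (-0.0441 to 0.0263) was above 0 without siControl replicate 2 (0.0168) or siLOC730101 replicate 2. PRR5L, with at most 16 counts a library, ran from -0.587 to 6.35, and SGK2 from -0.32 to 0.0326, both turned without siControl replicate 1. PIK3R3 was -0.0129 with upper-quartile factors and -0.0193 with library size only, and TBC1D4 was -0.00374 with library size only. No scaling moved the median of all genes by as much as 0.1, which is near the largest change among the 9 genes. The median of the 9 genes was 0.0443 in the main fit, 0.0143 with upper-quartile factors and 0.00888 with library size only. For all genes tested it was -0.00213, -0.033 and -0.0392 with the same settings.

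Over the whole table, 55 genes passed (41 higher, 14 lower). The count was 93 with library size only (58 higher, 35 lower), 297 with DESeq2, 437 with no filter beyond 1 count, 191 with a mean count above 50, 111 with the legacy method off, 146 with counts divided by 2 and between 137 and 1195 when 1 library was left out, highest without siLOC730101 replicate 1. Among the 116 wider pathway genes, 1 passed (LAMTOR2), and PHLPP2 (11 of 14), LAMTOR5 (6), RPS6 (5), TXNIP (4), LAMTOR4 (3), LAMTOR1 (2) and BAD (2), among others, did so under alternatives. The count was 5 with DESeq2, 6 with no filter beyond 1 count, 3 with a mean count above 50 and 2 (LAMTOR2 higher, PHLPP2 lower) with each of upper-quartile factors, library size only, the legacy method off and halved counts. It was between 1 and 13 when 1 library was left out, highest without siLOC730101 replicate 1. The cause was not tested.

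The labels number the replicates, but same-numbered libraries did not deviate together (correlation -0.000896 across genes tested, 2 pairs). With the replicate block, 652 genes passed over the whole table, 9 of the 116 wider genes and 0 of the 9 genes. With 1 library left out, the difference in log2 ratio between the groups ran, by gene pair, from 0.0194 to 0.0586 (PIK3CA to PIK3CB), -0.0201 to 0.0743 (PIK3CA to PIK3R1), -0.0699 to 0.0225 (AKT1 to AKT2), 0.0431 to 0.244 (RPTOR to RICTOR) and -0.129 to 0.0619 (MTOR to TSC2). Each group has 2 libraries, and PIK3CA, with 800 to 1171 counts a library, has the widest 95% interval of the 9 genes (-0.27 to 0.25).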
